A study of Danio rerio with 6 samples.

Results

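The genes described here are 9 regulators and signals of the embryonic midline of the zebrafish (Danio rerio): noto, shha, shhb, foxa, foxa1, foxa2, foxa3, foxj1a and arxa. They were taken by gene name from a table of 32520 genes, in which each name had 1 row, and all 9 passed the filter on low counts. RNA-seq had been carried out at 16 hours post fertilisation on the tissue that lies behind the most recently formed somite, a region that holds the tailbud and the newest notochord, neural tube and unsegmented mesoderm. The 3 sall4 morphant libraries came from embryos injected with a morpholino, an antisense oligomer, against sall4, which encodes a zinc finger transcription factor. The 3 control libraries were of mixed origin: control 1 came from embryos given a scrambled morpholino, and controls 2 and 3 from embryos that were not injected. No strain, dose or embryo number is given in the sources used here, and nothing in the labels ties the libraries to separate clutches. The p-values therefore cover the variation among these 6 samples alone, part of which may be technical.

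The notochord is a rod of mesoderm along the body axis, and the floor plate is the strip of neural tube cells directly above it. In the trunk and tail, noto (floating head) keeps midline mesoderm on the notochord path, and Hedgehog ligands from notochord and floor plate pattern the neural tube and the muscle beside them. Foxa factors act in floor plate, notochord and endoderm, and Foxj1 factors switch on the genes of motile cilia in the floor plate and in Kupffer's vesicle, the ciliated organ of the tail that sets left and right.

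The libraries held 18626513 to 42423495 counts. Levels below are CPM, counts scaled to a common library total, on library sizes scaled by edgeR's TMM factors, which ranged from 0.818 to 1.13. Across 17803 tested genes, edgeR's quasi-likelihood test with Benjamini-Hochberg adjustment put 5 genes, 0.0281%, past an adjusted p of 0.05, all higher in morphants, and 1719 genes past an unadjusted p of 0.05. The typical gene had a within-group SD of 0.59 among morphants and 0.25 among controls on the log2 CPM scale, and the log2 fold changes of all these genes had a median of 0.12. Morphant 2 stood apart from the other two morphants in how its levels followed gene length: the rank correlation of a gene's deviation with its length was −0.42, 0.43 and −0.28 in morphants 1, 2 and 3, against 0.21, −0.01 and 0.04 in controls 1, 2 and 3. Values without morphant 2 are given beside each gene named below whose call they changed. In that fit 1534 of 18125 tested genes passed edgeR's threshold in either direction, and 792 of these were lower. The sall4 transcript was at 974.5, 1337 and 1390 CPM in morphants, against 1110, 1312 and 1347 CPM in controls, and the groups overlapped. Since a translation-blocking morpholino can leave the transcript level as it is, these counts do not check the injection.

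The label of a midline group was checked against markers that were not among its members. The notochord markers tbxta, col2a1a, cav1 and ntd5 were present in every library at 169.8 CPM or more, and the floor plate markers spon1b and sulf1 at 56.4 CPM or more. Other notochord markers of the same list were near 0 throughout: epyc reached at most 0.326 CPM, entpd5a 0.235, col9a1a 0.269 and cavin1b 1.61 CPM in any library. All of these were singled out after their values were seen. The floor plate marker spon1a was at or near 0 in every library, with at most 0.0244 CPM, and sspo was not found by name.

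Of the 9 midline genes, 8 had a lower mean in morphants than in controls by edgeR's fit, and shhb alone was higher. None passed an adjusted p of 0.05 with edgeR, where 0.0281% of all genes did, and none with DESeq2, where 0.722% of genes were called lower and 0.844% higher. At an unadjusted p of 0.05, 4 of 9 were lower, against 5.19% of all genes, and 1 was higher, against 4.47%. Every morphant lay below every control for 5 of 9, noto, foxa1, foxa2, foxj1a and arxa, against 9.18% of all genes, and every morphant lay above every control for shhb, against 7.77%. The median log2 fold change of the 9 genes was −0.59, against 0.12 for all tested genes. Because the 9 genes were picked with earlier results of these data known, these counts describe them and carry no test. In tissue pieces such as these, fewer cells of a type and less RNA per cell cannot be told apart.

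**Figure D1:**
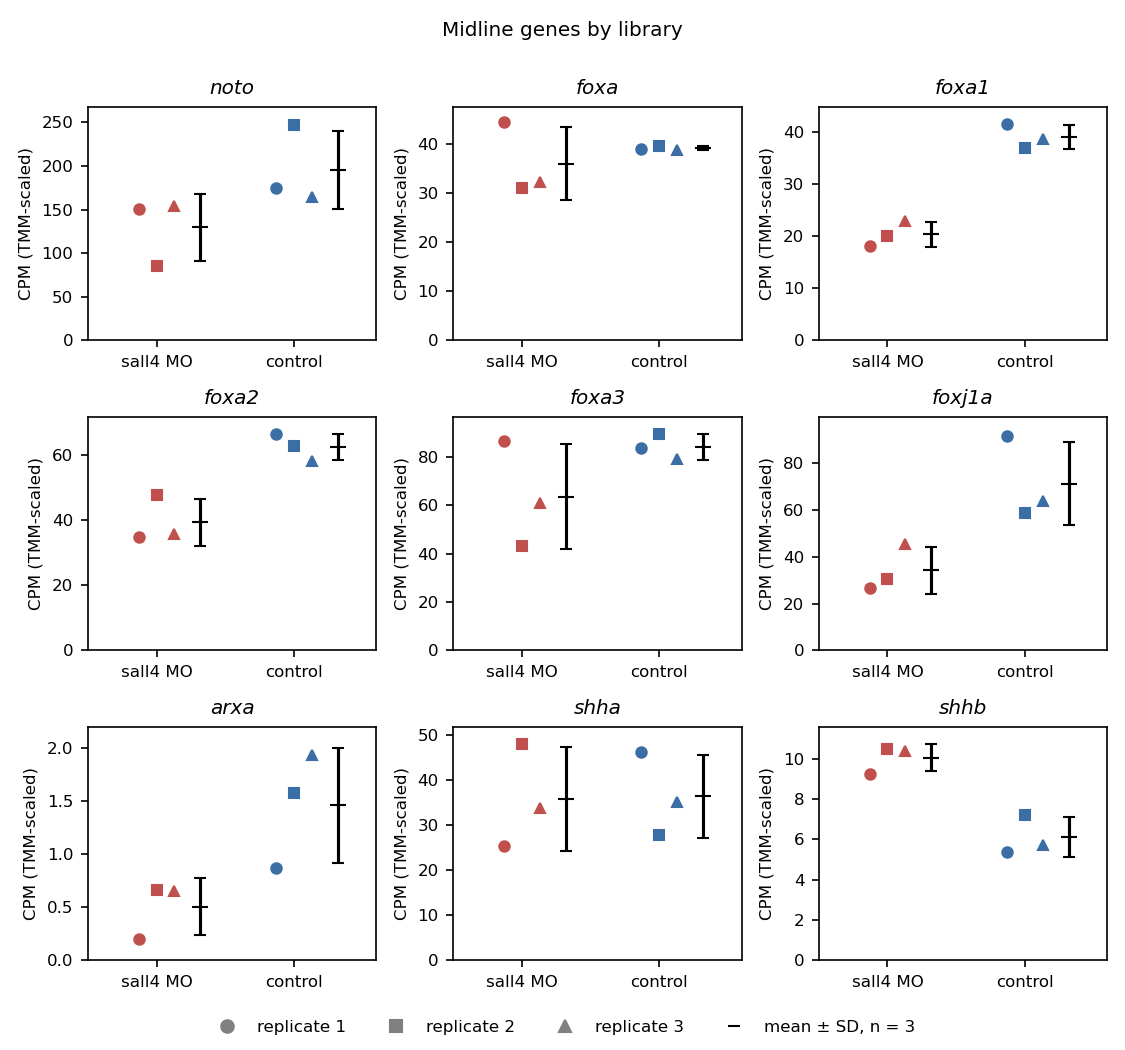
CPM of the 9 midline genes in each library, 1 panel a gene, with 3 morphants on the left and 3 controls on the right; points are libraries and bars are group means with SD. The foxa1 points lie at 18.1 to 22.9 CPM in morphants and 37.0 to 41.5 CPM in controls, while the shha points of both groups share the same range.

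The notochord regulator noto (ENSDARG00000021201) was the most abundant member. Its level was 150.1, 85.5 and 153.6 CPM in morphants 1, 2 and 3, against 175.0, 246.8 and 164.6 CPM in controls 1, 2 and 3. All morphants lay below all controls, but the highest morphant came close to the lowest control, and morphant 2 was the lowest library of all. The log2 fold change was −0.59 ± 0.32 (SE), with an edgeR adjusted p of 0.58, and it ranged from −0.74 to −0.38 over the 19 other settings tried. Without morphant 2 it was −0.38, and with each library's trend with gene length removed it was −0.74. By the length behind its FPKM, noto was 0.485 times as long as the median gene with a count.

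Other notochord genes gave a mixed picture. The T-box gene tbxta, which is required for notochord formation, averaged 550.6 ± 122.7 CPM in morphants and 668.2 ± 50.3 CPM in controls (SD, n = 3 each), and morphant 1 was higher than 2 of the 3 controls. Its paralogue tbxtb was at 50.8 ± 29.0 CPM in morphants and 45.9 ± 8.11 CPM in controls (SD, n = 3 each). Among 16 notochord markers, 12 were tested, and 8 of these had a lower mean in morphants. No tested marker had groups that did not overlap, against 9.18% of all genes lower and 7.77% higher. None of the 12 passed with edgeR or DESeq2, and 1 was lower at an unadjusted p of 0.05, against 5.19% of all genes. The list's median log2 fold change was −0.14, against 0.12 for all genes, and its summed level was 2800 to 3180 CPM in morphants and 2704 to 3681 CPM in controls.

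The 3 notochord markers with the smallest p were col2a1a, chrd and cav1. The type II collagen gene col2a1a, a component of the notochord sheath, was at 169.8, 400.2 and 186.3 CPM in morphants, against 774.2, 255.3 and 725.2 CPM in controls. The Bmp antagonist gene chrd was at 13.9, 54.8 and 18.3 CPM in morphants, against 58.6, 47.8 and 95.3 CPM in controls. For both, morphant 2 and control 2 lay between the other libraries, so the groups overlapped. Their log2 fold changes were −1.21 ± 0.50 and −1.21 ± 0.54 (SE), with edgeR adjusted p of 0.50 and 0.52. Without morphant 2 edgeR called both lower, col2a1a at −1.74 (adjusted p = 0.0430) and chrd at −2.08 (adjusted p = 0.0171), where 4.37% of all genes were called lower. With the length trend removed as well, edgeR still called chrd lower at −1.77 (adjusted p = 0.0217), but not col2a1a. The caveolin gene cav1, a component of membrane pits abundant in notochord vacuolated cells, averaged 279.5 ± 115.3 CPM in morphants and 197.8 ± 12.4 CPM in controls (SD, n = 3 each). With the length trend removed and morphant 2 left out, edgeR called cav1 higher at 1.01 (adjusted p = 0.0460). In that fit 1042 of 18125 tested genes passed in either direction.

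The 4 foxa genes encode forkhead transcription factors, known from mammals as factors that bind and open closed chromatin. foxa1 (ENSDARG00000102138), expressed in floor plate and endoderm, was at 18.1, 20.0 and 22.9 CPM in morphants, against 41.5, 37.0 and 38.6 CPM in controls. Both groups were tight and far apart. The means were 20.3 ± 2.40 CPM in morphants and 39.0 ± 2.26 CPM in controls (SD, n = 3 each). The log2 fold change of foxa1 was −0.94 ± 0.25 (SE), with adjusted p of 0.29 by edgeR and 0.0807 by DESeq2. By its edgeR p it ranked 316 of 17803 genes. Over the 19 other settings its log2 fold change stayed between −1.04 and −0.86, and without morphant 2 edgeR called it lower at −0.95 (adjusted p = 0.0425).

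foxa2 (ENSDARG00000003411), which is needed for floor plate development, was at 34.6, 47.5 and 35.7 CPM in morphants, against 66.2, 62.7 and 58.0 CPM in controls. No morphant reached the lowest control, and morphant 2 came nearest. On the log2 scale the fold change was −0.67 ± 0.26 (SE), with adjusted p of 0.46 by edgeR and 0.38 by DESeq2. Without morphant 2 it was −0.85, past edgeR's threshold (adjusted p = 0.0430). foxa1 and foxa2 were the 2 of 9 members called lower there, where 4.37% of all genes were.

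foxa3 (ENSDARG00000012788), a forkhead gene of endoderm and axial mesoderm, was the most variable of the 4 among morphants. It was at 86.5, 43.3 and 61.1 CPM in morphants, against 83.8, 89.5 and 79.1 CPM in controls. Morphant 1 lay among the controls and the other two morphants below them. The log2 fold change was −0.40 ± 0.31 (SE), with an edgeR adjusted p of 0.66. It was −0.68 without morphant 1 and −0.21 without morphant 2, and ranged from −0.68 to −0.089 over the 19 other settings. foxa (ENSDARG00000087094), the fourth gene of the family in this table, was at 44.5, 31.2 and 32.4 CPM in morphants, against 39.1, 39.6 and 38.8 CPM in controls. Its 3 controls lay within an SD of 0.403 CPM, morphant 1 above them and morphants 2 and 3 below. On the log2 scale the fold change was −0.12 ± 0.26 (SE), with an edgeR adjusted p of 0.86, and ranged from −0.30 to −0.04 over the other settings. With libraries scaled by total count alone, every morphant lay below every control for both foxa3 and foxa.

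The share of each gene in the summed counts of the 4 foxa genes does not depend on how libraries are scaled. foxa took 24.2%, 22.0% and 21.3% of these counts in morphants, against 17.0%, 17.3% and 18.1% in controls. All morphants were above all controls, and the 95% Wilson intervals also kept apart, with a lowest morphant bound of 20.0% and a highest control bound of 18.9%; these intervals cover counting error only. foxa1 took 9.86%, 14.1% and 15.1% in morphants, against 17.99%, 16.2% and 18.01% in controls, again without overlap but in the other direction. The 4 shares add up to the whole in each library, so a share can rise when others fall. By level, foxa was not higher, with 36.0 ± 7.39 CPM in morphants and 39.2 ± 0.403 CPM in controls (SD, n = 3 each). foxa2 averaged 25.3% ± 7.48 in morphants and 27.7% ± 0.883 in controls, and foxa3 averaged 39.3% ± 8.33 in morphants and 37.4% ± 1.49 in controls (SD, n = 3 each). For both of these genes the morphants lay on both sides of the controls.

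With 3 libraries against 3, a two-sided exact permutation test cannot go below a p of 0.1. It gave this smallest p of 0.1 for the foxa and foxa1 shares and 0.7 for those of foxa2 and foxa3 (exact permutation tests, n = 3 each). Adjusted over the 5 shares compared, the fifth being that of shhb given further on, the values were 0.25 for foxa and foxa1 and 0.7 for foxa2 and foxa3 in the same exact tests. No values in these groups could have passed a threshold of 0.05 in this test, so it does not bear on whether the shares differ.

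**Figure D2:**
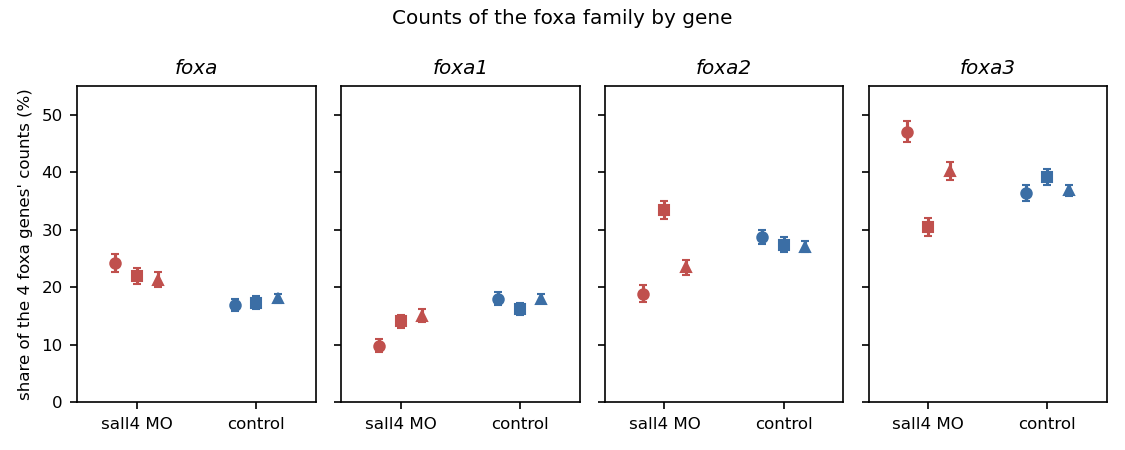
Share in percent of each foxa gene in the summed counts of the 4 foxa genes, with morphants left of controls for each gene; points are libraries with 95% Wilson intervals. foxa lies at 21.3% to 24.2% in morphants and 17.0% to 18.1% in controls, and foxa1 at 9.86% to 15.1% in morphants and 16.2% to 18.01% in controls.

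foxj1a (ENSDARG00000101919), the master transcription factor gene of motile cilia, was at 26.5, 30.5 and 45.5 CPM in morphants, against 91.4, 58.4 and 63.7 CPM in controls. The groups did not overlap, and control 1, the scrambled-injected library, was the highest. The means were 34.2 ± 9.97 CPM in morphants and 71.2 ± 17.7 CPM in controls (SD, n = 3 each). The log2 fold change was −1.06 ± 0.32 (SE), with adjusted p of 0.36 by edgeR and 0.15 by DESeq2. By its edgeR p it ranked 507 of 17803 genes.

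The size of the foxj1a difference moved with the controls chosen. It was −1.43 on the log2 scale against the scrambled-injected library alone and −0.84 against the non-injected libraries alone. It was −0.92 once each library's trend with gene length had been removed, and −0.69 when morphant 2 was left out as well. By the length behind its FPKM, foxj1a was 2.34 times as long as the median gene with a count. The direction was negative in all 19 other settings, and no setting brought it past the threshold.

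The paralogue foxj1b was lower by a like amount. It was at 10.7, 14.7 and 18.04 CPM in morphants, against 33.5, 32.5 and 28.9 CPM in controls, without overlap. Its log2 fold change was −1.13 ± 0.29 (SE), with adjusted p of 0.29 by edgeR and 0.0596 by DESeq2. Without morphant 2 edgeR called it lower at −1.15 (adjusted p = 0.0430).

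Genes that build or move motile cilia, among them targets of Foxj1 factors, were lower in morphants as a list. Of 31 genes listed, foxj1b included, 28 were found and 25 tested. Among these 25, 22 had a negative log2 fold change, and for 17, or 68%, every morphant lay below every control, against 9.18% of all genes; none was higher without overlap. The median log2 fold change was −1.34, against 0.12 for all genes. None passed with edgeR, 16 were lower at an unadjusted p of 0.05, against 5.19% of all genes, and 0 higher, against 4.47%. DESeq2 called 3 lower, against 0.722% of all genes. The list's summed level was 161.6 to 201.8 CPM in morphants and 298.5 to 378.8 CPM in controls.

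The cilia genes lower by DESeq2 include parts of the beating machinery. The dynein arm assembly gene ccdc103 was at 3.88, 2.47 and 8.12 CPM in morphants, against 19.4, 13.8 and 17.3 CPM in controls. Its groups did not overlap, and its log2 fold change was −1.80 ± 0.46 (SE), with adjusted p of 0.28 by edgeR and 0.0209 by DESeq2. Without morphant 2 edgeR called ccdc103 lower at −1.49 (adjusted p = 0.0429). The other two, singled out after their values were seen, were the radial spoke gene rsph9 and the axonemal gene efhc2, with DESeq2 adjusted p of 0.0482 and 0.0303.

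A few genes of the list did not share the direction, and these too were singled out after their values were seen. The cilia genes gas8, enkur and mns1 had positive log2 fold changes of 0.36, 0.22 and 0.41 with overlapping groups. The ciliary regulator genes rfx2 and rfx3 were at −0.85 and −0.95, of which rfx2 did not overlap between groups. With other scalings or on the deposited FPKM, 16 to 18 of the 25 genes had every morphant below every control, against 9.33% to 11.1% of all genes. With 1 library left out the count was 17 to 20, against 10.4% to 26.7% of all genes. Leaving out a library can hardly undo a separation already present, so these counts do not test it. Without morphant 2 it was 20, or 80%, against 26.7% of all genes, and edgeR called 7 of the list lower, against 4.37% of all genes.

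**Figure D3:**
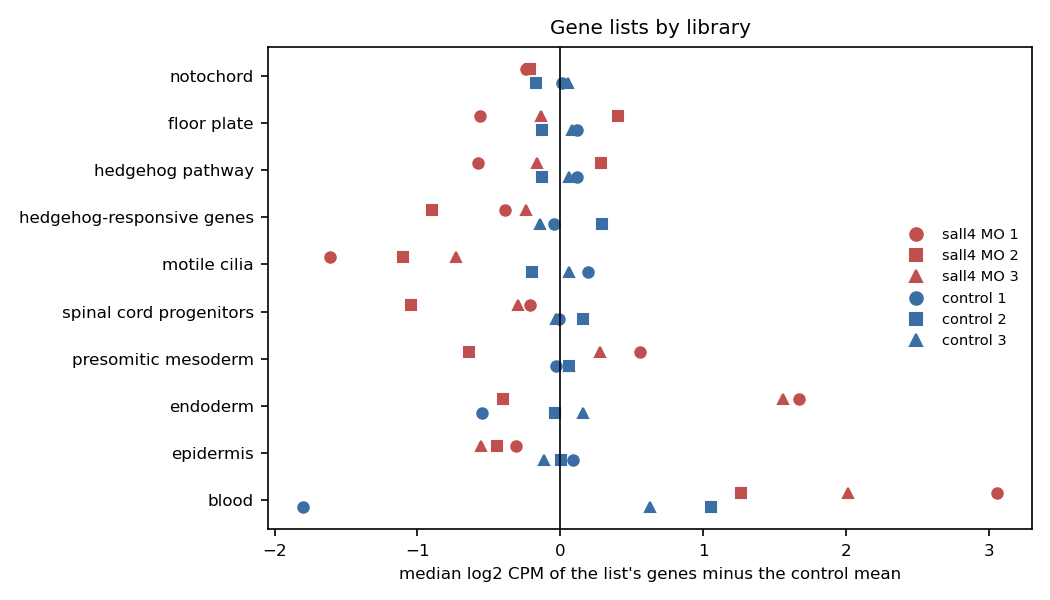
Median over each list's genes of the log2 CPM minus the control mean (x axis), with 1 point per library and the morphant row above the control row for each list on the y axis. The motile cilia list lies at −1.61 to −0.73 in morphants and −0.20 to 0.20 in controls, while the hedgehog pathway list has morphants on both sides of 0.

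arxa (ENSDARG00000058011), an aristaless-type homeobox gene transcribed in the zebrafish floor plate and muscle precursors, was the scarcest member and rests on few reads. Its counts were 3, 17 and 16 in morphants, against 18, 32 and 79 in controls. The levels were 0.197, 0.665 and 0.653 CPM in morphants, against 0.869, 1.57 and 1.93 CPM in controls. The groups did not overlap by value, yet control 1's 95% exact Poisson interval of 0.515 to 1.37 CPM covered the levels of morphants 2 and 3. On the log2 scale the fold change was −1.49 ± 0.56 (SE), with an edgeR adjusted p of 0.45, and it ranged from −1.87 to −0.58 over the other settings. Against the scrambled-injected library alone it was −0.76.

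The genes shha and shhb encode paralogous ligands of the Sonic hedgehog type. shha (ENSDARG00000068567) was at 25.3, 48.1 and 33.9 CPM in morphants, against 46.2, 27.9 and 35.2 CPM in controls. The groups covered the same range, with morphant 2 the highest library and morphant 1 the lowest. By the length behind its FPKM, shha was 2.23 times as long as the median gene with a count. Morphants 2 and 1 also had the highest and lowest rank correlations with gene length, and the part of length in this spread was not tested. The log2 fold change of shha was −0.03 ± 0.33 (SE), with an edgeR adjusted p of 0.98, and its sign changed between settings, from −0.38 to 0.17. shhb (ENSDARG00000038867), known as tiggywinkle hedgehog and active in the floor plate, was at 9.26, 10.5 and 10.4 CPM in morphants, against 5.36, 7.23 and 5.72 CPM in controls. Every morphant was above every control. Its log2 fold change was 0.72 ± 0.29 (SE), with adjusted p of 0.48 by edgeR and 0.395 by DESeq2, and it stayed between 0.58 and 0.90 over the other settings. With libraries scaled by total count alone, the groups of shhb overlapped.

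The share of shhb in the summed counts of both ligand genes was 26.8%, 17.9% and 23.5% in morphants, against 10.4%, 20.6% and 14.0% in controls. The part of gene length in these shares was not tested, with shha at 2.23 and shhb at 0.988 times the median length of genes with a count. Morphant 2 lay below control 2, so the groups overlapped, and the exact permutation test gave a p of 0.2 (two-sided, n = 3 each; 0.333 adjusted over the 5 shares).

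**Figure D4:**
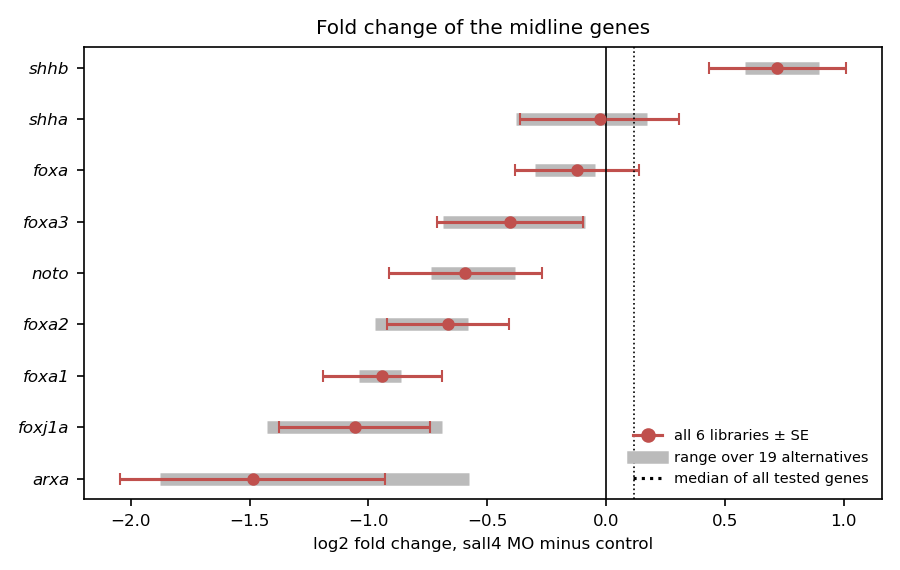
Log2 fold change of each midline gene, morphants over controls, as points with SE bars from edgeR's fit, over grey bars that span the 19 other settings. The values run from −1.49 for arxa to 0.72 for shhb, and the dotted line marks the median of all tested genes at 0.12.

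Genes that release, receive and relay Hedgehog signals had log2 fold changes on both sides of 0. Of 29 listed, 26 were found under 27 rows and 23 rows were tested. Of these 23, 11 had negative log2 fold changes. None lay wholly lower in morphants, against 9.18% of all genes, and 2 lay wholly higher, against 7.77%. The 2 were gas1b and, singled out after its values were seen, the pathway inhibitor gene sufu (log2 fold change 0.43). The list's median log2 fold change was 0.01, close to 0.12 for all genes, and its sign depended on the setting. Without morphant 2 it was −0.44, against −0.04 for all genes. In that fit edgeR called 3 of the list lower, against 4.37% of all genes, and 1 higher. Of 18125 genes tested there, 1534 passed in either direction, and 792 of these were lower. With all libraries the list's summed level was 1224 to 1759 CPM in morphants and 1346 to 1603 CPM in controls. None passed with edgeR, 1 was higher at an unadjusted p of 0.05, against 4.47% of all genes, and DESeq2 called 1 higher, against 0.844%.

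The receptor gene ptch1, itself induced by Hedgehog signalling, averaged 16.5 ± 9.06 CPM in morphants and 25.8 ± 8.99 CPM in controls (SD, n = 3 each), with an edgeR adjusted p of 0.64. A further row named ptch1 held no counts.

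The signal transducer gene smo was at 219.6 ± 45.1 CPM in morphants and 208.5 ± 16.8 CPM in controls (SD, n = 3 each). The transcription factor genes of the pathway were also near their control means: gli1 averaged 91.0 ± 51.6 CPM in morphants and 91.3 ± 10.1 CPM in controls, and gli2a 134.9 ± 85.3 CPM in morphants and 134.1 ± 11.4 CPM in controls (SD, n = 3 each). Those means hide wide morphant values, since gli1 was at 49.98, 148.9 and 74.0 CPM and gli2a at 73.1, 232.2 and 99.3 CPM in morphants 1, 2 and 3. In both, morphant 2 was above all controls and the other two below all controls. gli3 averaged 13.9 ± 6.42 CPM in morphants and 12.3 ± 0.650 CPM in controls (SD, n = 3 each). The log2 fold changes of smo, gli1, gli2a and gli3 were 0.07, −0.01, 0.01 and 0.18, and each changed sign in at least 1 other setting.

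Among co-receptor genes, gas1b was higher and cdon lower by mean in morphants. gas1b, encoding a membrane-anchored Hedgehog co-receptor, was at 91.4, 71.4 and 88.6 CPM in morphants, against 29.0, 42.4 and 38.5 CPM in controls. The groups were far apart. Its log2 fold change was 1.19 ± 0.27 (SE), with adjusted p of 0.22 by edgeR and 0.0237 by DESeq2, and without morphant 2 edgeR called it higher at 1.28 (adjusted p = 0.0226). The co-receptor gene cdon averaged 60.9 ± 25.8 CPM in morphants and 102.4 ± 34.2 CPM in controls (SD, n = 3 each). Its log2 fold change was −0.75 ± 0.39 (SE), with an edgeR adjusted p of 0.57, and without morphant 2 edgeR called it lower at −1.16 (adjusted p = 0.0490). Of 18125 genes tested without morphant 2, 1534 passed in either direction, and 792 of these were lower.

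Among genes that respond to Hedgehog signalling, those listed for the neural tube were lower by mean. Of those listed for muscle, only prdm1a was lower. This division of the list was made after its values were seen. Of 12 listed, 10 were found and tested, 7 had negative log2 fold changes, and 4 lay wholly lower in morphants, or 40%, against 9.18% of all genes. None was wholly higher. The median log2 fold change was −0.61, against 0.12 for all genes, and the summed level was 395.6 to 432.0 CPM in morphants and 480.4 to 559.2 CPM in controls. None passed with edgeR, 3 were lower at an unadjusted p of 0.05, against 5.19% of all genes, and DESeq2 called 1 lower, against 0.722%.

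The gene called was nkx6.2, which encodes a homeobox factor of the ventral neural tube. It was at 13.6, 9.98 and 17.6 CPM in morphants, against 47.7, 46.7 and 48.5 CPM in controls. The controls were almost equal, and no morphant came near them. The log2 fold change was −1.80 ± 0.30 (SE), with adjusted p of 0.13 by edgeR and 9.39e-05 by DESeq2; without morphant 2 edgeR also called it lower at −1.63 (adjusted p = 0.0129).

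The ventral neural homeobox gene nkx2.9 averaged 2.98 ± 1.13 CPM in morphants and 6.03 ± 1.44 CPM in controls (SD, n = 3 each), without overlap, and edgeR placed it at −1.02 ± 0.40 on the log2 scale (SE, adjusted p = 0.48). prdm1a, needed for the slow muscle fate, was at 124.0, 167.3 and 122.6 CPM in morphants, against 227.4, 188.1 and 217.8 CPM in controls. Its groups did not overlap, and edgeR placed it at −0.61 ± 0.26 on the log2 scale (SE, adjusted p = 0.50). Without morphant 2 edgeR called prdm1a lower at −0.80 (adjusted p = 0.0456). The slow myosin gene smyhc1, singled out after its values were seen, went the other way, at 29.8 ± 33.6 CPM in morphants and 7.02 ± 5.95 CPM in controls (SD, n = 3 each), with overlap. The genes myod1 and prox1a, listed for muscle and singled out likewise, also had positive log2 fold changes, of 0.12 and 0.27, with overlap.

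Floor plate markers lay on both sides of 0. Of 9 listed, 7 were tested, 4 had negative log2 fold changes, and the median was −0.16, against 0.12 for all genes. The summed level was 608.6 to 878.8 CPM in morphants and 588.8 to 678.5 CPM in controls. None passed with edgeR or DESeq2, and none had an unadjusted p under 0.05. No tested floor plate marker was wholly lower in morphants, against 9.18% of all genes, and 1 was wholly higher, against 7.77%. Without morphant 1 the list's median was −0.01, against 0.05 for all genes. It turned to 0.14, against 0.03, with the length trend removed and morphant 2 left out. The F-spondin gene spon1b, which encodes a secreted floor plate protein, was at 108.9, 152.3 and 114.9 CPM in morphants, against 98.4, 56.4 and 81.7 CPM in controls, and was wholly higher in morphants. By edgeR it differed by 0.67 ± 0.30 on the log2 scale (SE, adjusted p = 0.53). The netrin gene ntn1b was at 5.57 ± 2.44 CPM in morphants and 8.99 ± 1.52 CPM in controls, and the heparan sulfatase gene sulf1 at 215.1 ± 137.4 CPM in morphants and 153.6 ± 27.1 CPM in controls (SD, n = 3 each), and both overlapped.

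**Figure D5:**
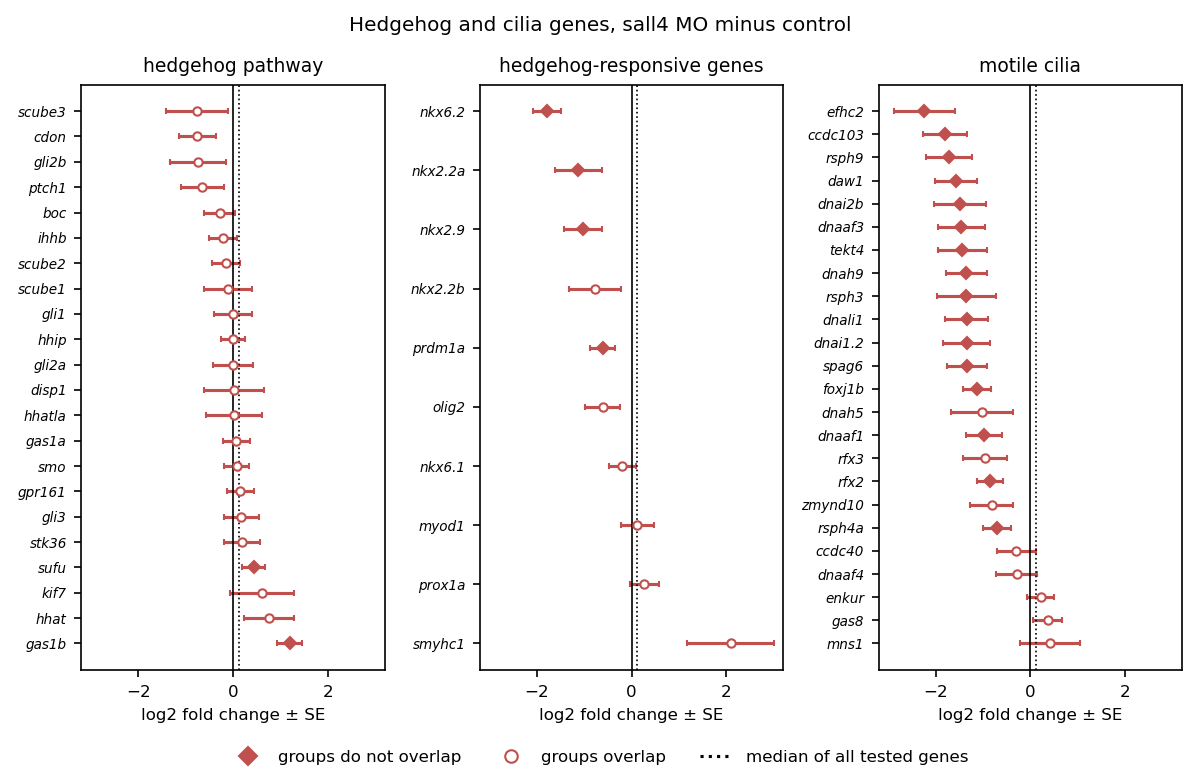
Log2 fold change, morphants over controls, with SE from edgeR's fit for tested genes of the hedgehog pathway, hedgehog-responsive and motile cilia lists; filled diamonds mark genes whose groups do not overlap, open circles those that overlap, and the dotted line the median of all genes at 0.12. Every filled gene shown lies left of 0 in the motile cilia and hedgehog-responsive panels, and right of 0 in the hedgehog pathway panel.

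Levels of different genes were compared on the deposited FPKM scale, which divides by gene length. In morphants noto was first at 142 ± 44.0 FPKM, followed by foxa3 at 24.9 ± 8.71, foxa2 at 23.9 ± 3.88 and foxa at 18.8 ± 3.96 FPKM (SD, n = 3). Next came foxa1 at 11.6 ± 1.51, shha at 8.46 ± 2.59 and foxj1a at 7.75 ± 2.38 FPKM, and last shhb at 5.38 ± 0.361 and arxa at 0.358 ± 0.189 FPKM (SD, n = 3). Neighbours from foxa3 to foxa and from foxa1 to foxj1a overlapped between libraries, while the other neighbours did not.

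In controls noto was also first at 213.4 ± 47.1 FPKM, and foxa2 at 38.1 ± 2.78 stood before foxa3 at 33.0 ± 1.94 and foxa1 at 22.4 ± 1.55 FPKM (SD, n = 3). Then came foxa at 20.5 ± 0.213, foxj1a at 16.2 ± 4.22, shha at 8.69 ± 2.30, shhb at 3.27 ± 0.501 and arxa at 1.04 ± 0.378 FPKM (SD, n = 3). Only foxa and foxj1a overlapped among control neighbours. foxa1 was below foxa by mean in morphants and above it in controls, and foxj1a was below shha by mean in morphants and above it in controls.

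Across the 6 libraries the log2 CPM values of some members moved together, which is given as a description because both groups, the library depth and the scaling enter each correlation. foxa1 and foxj1a had a Pearson r of 0.95, foxa and foxa3 of 0.90, foxa1 and foxa2 of 0.89, and noto and foxa3 of 0.87 (6 libraries). shhb had an r of −0.91 with foxa1 and −0.86 with foxj1a, and shha and shhb had an r of −0.15.

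By the same measure, the genes most like each member were olig2 and arl3b for noto (0.98 each), sox21b and nog2 for foxa1 (1.00 and 0.99), and furina and nog2 for foxj1a (0.99 and 0.98). They were crestin and nfasca for foxa2 (0.99 each), sox1b and rnf144ab for foxa3 (0.99 each), and styk1b and arrdc1a for foxa (1.00 and 0.99). For the remaining genes they were ubtfl and fh for shha (0.99 each), zpr1 and bccip for shhb (0.99 each), and morn4 and kctd6a for arxa (0.98 and 0.97). With so many genes searched, values this high describe likeness over these 6 libraries only.

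Markers of other cell types in the tissue also differed between libraries, and their part in the results above was not tested. Endoderm markers, relevant because foxa1, foxa2 and foxa3 are also endoderm genes, summed to 313.5 to 584.1 CPM in morphants and 415.3 to 416.0 CPM in controls, with a median log2 fold change of 0.96 over 7 tested of 10. That median is the value of gata5, a scarce transcript at 1.61 ± 0.823 CPM in morphants and 0.79 ± 0.672 CPM in controls (SD, n = 3 each), with overlap. Most of the summed level came from 1 marker, cxcr4a, singled out after its values were seen. It was at 513, 272.5 and 333.5 CPM in morphants, against 357.4, 365.3 and 355.6 CPM in controls. The sum therefore says little of the other markers. Among them sox17, a regulator of endoderm, averaged 1.56 ± 0.432 CPM in morphants and 0.326 ± 0.174 CPM in controls (SD, n = 3 each; DESeq2 adjusted p = 0.0330), and hnf1ba, a homeobox gene of endoderm and hindbrain, averaged 20.1 ± 5.54 CPM in morphants and 39.7 ± 6.30 CPM in controls (SD, n = 3 each; edgeR adjusted p = 0.36). The intestinal fatty acid binding gene fabp2 was at 14.3, 1.17 and 9.83 CPM in morphants, against 0.290, 0.541 and 2.37 CPM in controls (DESeq2 adjusted p = 0.0367). Without morphant 2 edgeR called hnf1ba lower at −1.24 (adjusted p = 0.0269) and fabp2 higher at 3.36 (adjusted p = 0.027). Of 18125 genes tested there, 1534 passed in either direction, and 792 of these were lower. With all libraries DESeq2 called 2 of the endoderm list higher, against 0.844% of all genes, and edgeR none. At an unadjusted p of 0.05 by edgeR, 1 was lower, against 5.19% of all genes, and 2 higher, against 4.47%.

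Spinal cord progenitor markers summed to 571.7 to 1040 CPM in morphants and 1114 to 1183 CPM in controls. Their median log2 fold change was −0.54 over 12 tested, and 5 were wholly lower in morphants, against 9.18% of all genes. Their 3 leading genes were irx3a at −1.11, sox19a at −0.70 and sox3 at −0.72, all transcription factor genes of neural progenitors, of which DESeq2 called irx3a lower (adjusted p = 0.0237). Of the 12 markers, 9 had negative log2 fold changes. The others, sox1a, dbx1b and sox2, singled out after their values were seen, were at 0.62, 0.22 and 0.0087. Morphant 2 was the lowest library for this list, and without it edgeR called irx3a lower at −1.21 (adjusted p = 0.0247). None of the 12 passed with edgeR, and 2 were lower at an unadjusted p of 0.05, against 5.19% of all genes.

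Presomitic mesoderm markers summed to 5306 to 12770 CPM in morphants and 7154 to 8919 CPM in controls, with a median log2 fold change of 0.21 over 12 tested. The largest part of that sum in every library was msgn1, singled out after its values were seen. It was at 8006, 2141 and 4301 CPM in morphants, against 2601, 4251 and 3695 CPM in controls. The leading genes of the list were the segmentation genes mespaa (0.78) and mespba (0.69), and tbx6 (−0.56), a T-box gene of that tissue. Epidermis markers summed to 4766 to 8349 CPM in morphants and 8464 to 11250 CPM in controls, with a median of −0.16 over 8 tested, led by krt4 (−0.95), tp63 (−0.38) and krt5 (−0.50). The largest part of the epidermis sum in every library was krt4. Of the 8 epidermis markers, 5 had negative log2 fold changes. The others, krt92, epcam and cldni, singled out after their values were seen, were at 0.31, 0.21 and 0.09. The medians turned sign without 1 library, to −0.0014 for mesoderm without morphant 1 and to 0.03 for epidermis without morphant 3. Neither list had a call by edgeR or DESeq2 with all libraries. Without morphant 2 edgeR called mespaa (0.99, adjusted p = 0.0292) and mespba (1.00, adjusted p = 0.0452) higher and krt4 lower (−1.48, adjusted p = 0.0268). In that fit 1534 of 18125 tested genes passed in either direction, and 792 of these were lower. At an unadjusted p of 0.05 with all libraries, the mesoderm list held 1 gene, higher, against 4.47% of all genes, and the epidermis list 0.

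Blood markers were the list with the largest median of those examined, at 1.76 over 10 tested, and 7 were wholly higher in morphants, against 7.77% of all genes. They summed to 630.8 to 2365 CPM in morphants and 217.1 to 587.8 CPM in controls, the scrambled-injected control being the lowest. The embryonic globin genes hbbe2, hbae5 and hbae3 led them at 3.18, 2.65 and 2.43, and DESeq2 called hbbe2 (adjusted p = 0.00455) and hbae5 (adjusted p = 0.0321) higher; near-identical globin copies may share reads. None passed with edgeR, and 6 were higher at an unadjusted p of 0.05, against 4.47% of all genes. Without morphant 2 edgeR called hbbe2 (3.59, adjusted p = 0.0267), hbae5 (3.07, adjusted p = 0.0299) and hbae3 (2.79, adjusted p = 0.0464) higher. In that fit 1534 of 18125 tested genes passed in either direction, and 792 of these were lower. Hatching gland markers summed to 386.2 to 974.4 CPM in morphants and 473.3 to 743.8 CPM in controls, with a median of −0.24 over 8 tested rows. The median was 4.29 without control 3 and 0.27 without morphant 2, and he1.1, singled out after its values were seen, was at 67.5, 4.58 and 58.6 CPM in morphants, against 3.33, 2.21 and 152.4 CPM in controls. Their leading genes xbp1, he1.3 and ctslb were at 0.35, 0.39 and −0.54, with no call by either tool and 0 at an unadjusted p of 0.05. Further rows named ctslb also entered the median, at −0.19 and, for a pair of rows with equal CPM in every library, at −0.37. The values of that pair thus counted more than once. DESeq2 gave no adjusted p for he1.1 or for any ctslb row, so it could not call these.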

How the data were processed

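RNA from tissue behind the last somite was extracted and made into strand-specific polyadenylated libraries, per the labels. Counts were deposited as whole numbers, 1 row per Ensembl gene. The deposited FPKM values are the authors' counts divided by gene length and by 1 scale per library, which followed median-of-ratios size factors within 0.989 to 1.02. Tools named in the submitters' processing notes, without roles, were DESeq2 1.38.3 and STAR 2.7.10a, and the build was GRCz11. Counter, strand setting and annotation were not given in the sources used here, so overlapping, antisense and near-identical genes are uncertain.

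Counts were tested in R 4.3.3 with edgeR 4.0.16: TMM scaling, filterByExpr, a quasi-likelihood fit on group alone, and Benjamini-Hochberg adjustment over 17803 genes, with a threshold of 0.05. The SE is the log2 fold change divided by the square root of its F statistic. All fold changes are morphants over controls. DESeq2 1.42.0 on the counts and limma 3.58.1 on log2(FPKM + 1) and log2(FPKM + 0.1) were among 19 alternatives; scripts were tested on simulated data. Figures were drawn with matplotlib 3.10.9. No library columns were identical.

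Beside the members, sall4 and core genes of the pathway, the text names the 3 tested genes of each list with the smallest p, and for each member the 2 genes most correlated with it among genes of average log2 CPM of at least 3. The members and lists were chosen with earlier results of these data known. Some genes that this rule names are not reported here, though they count in their lists.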

Additional observations from a re-analysis of the deposited data

How the results depend on the processing

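The count of genes past edgeR's threshold was 5 of 17803 and moved with nearly every choice. It was 1 with library-size scaling, 28 with no filter on low counts, 334 with DESeq2, and 11 and 16 with limma on log2(FPKM + 1) and log2(FPKM + 0.1). It was 0 against the non-injected controls alone, 20 with the length trend removed, and 1042 with that and morphant 2 left out. When 1 library was left out it was 1534 without morphant 2, 19 without morphant 1, and 0 without any other library. Of the 9 midline genes, 0 passed in the main test; 2 did with the length trend removed and morphant 2 left out, foxa1 (adjusted p = 0.0348) and foxa2 (adjusted p = 0.0319), and 0 to 2 when 1 library was left out. The calls made by edgeR without morphant 2 for col2a1a, cdon, prdm1a, irx3a, mespba and hbae3 were lost once the length trend was also removed. In that same setting edgeR called cav1 higher (1.01, adjusted p = 0.0460) and sox19a lower (−0.76, adjusted p = 0.0486). The causes were not tested.

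Same-numbered libraries showed no clear pairing: the correlations of their deviations were −0.29, −0.095 and 0.16, and only morphant 3 matched its own number best. These deviations also hold each library's trend with gene length, so they cannot settle whether same-numbered libraries were paired. With the replicate block 0 genes passed, gli2a was at −0.18 and ctslb at 1.19.

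The midline genes other than shha kept their direction in all 19 alternatives. Of these, the non-injected controls alone and the leaving out of control 1 are the same fit. shha was at 0.17 against the non-injected controls alone and 0.035 with the length trend removed, and from −0.32 to 0.17 when 1 library was left out. Other genes near 0 also changed sign. Against the scrambled-injected control alone, sall4 was at 0.14, smo at −0.030, gli2a at −0.085 and ctslb at 6.29. Against the non-injected controls alone, gli1 was at 0.081 and tbxtb at −0.0024. With the length trend removed, sall4 was at 0.19, gli1 at 0.0073 and gli2a at −0.0024, and with morphant 2 left out too, sall4 was at 0.45, gli2a at −0.22, tbxtb at −0.60 and tp63 at 0.0059. gli2a was at −0.0013 with median-of-ratios factors, −0.0042 with a mean CPM of at least 1, −0.0014 with DESeq2, and −0.16 and −0.17 on log2(FPKM + 1) and log2(FPKM + 0.1), where ctslb was at 0.46 and 1.44. When 1 library was left out, sall4 ranged from −0.12 to 0.12, smo from −0.12 to 0.18, gli1 from −0.58 to 0.29, gli2a from −0.66 to 0.31, gli3 from −0.25 to 0.45, tbxtb from −0.45 to 0.40, sulf1 from −0.20 to 0.74 and ctslb from −1.10 to 4.40. Depth limits arxa, with 3 counts in morphant 1.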
